A study of Mus musculus with 74 samples.

Results

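Klf10, also called TIEG1, is 1 of 5844 mouse genes that a single-symbol probe represented on these arrays. It was measured by 1 probe of 8976, probe 8286, the only one whose single symbol in the platform annotation is Klf10 (gene ID 21847, protein-coding). The probe gave a value on 73 of 74 arrays. The blank was S2WT at 1 h, replicate 3.

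TGF-β is a secreted ligand that activates a pair of serine/threonine kinase receptors. These phosphorylate the transcription factors Smad2 and Smad3, which enter the nucleus with Smad4 and switch genes on and off. Klf10 is a zinc-finger factor of the Krüppel-like (KLF) and Sp family that binds GC-rich DNA and mostly represses transcription through the Sin3A corepressor complex. It was found as an early gene induced by TGF-β, and it is known to repress Smad7, the inhibitory Smad that limits the same pathway.

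The arrays are dual-channel cDNA arrays. Per the labels, one channel held RNA of cells without TGF-β and the other RNA of cells of the same line given TGF-β, at 0, 0.3, 1, 2 or 4 h. There are 5 series of arrays, called S2WT, S2KO, S3WT, S3KO and U0126 in the titles, and each of the 25 groups holds 3 arrays except S3KO at 1 h, which holds 2. The labels do not explain these names. From the published study with this design, S2 is taken as Smad2 and S3 as Smad3, with WT for wild-type and KO for knockout mouse embryonic fibroblasts. The labels name neither a cell type nor the isoform and dose of TGF-β, nor whether a line is a single clone, and a ratio within a line checks neither the cell type nor the knockout. The U0126 arrays carry the name of an inhibitor of the kinase MEK together with S2WT in both channels. Their titles set S2WT against U0126. If the titles name the channels, an effect of the drug and the response to TGF-β cannot be told apart. By the channel labels the U0126 arrays hold S2WT and no separate cell line. The word line below stands for any of these 5 series. By the labels, no array at 0 h held TGF-β in either channel, so these 15 arrays give the background ratio of the probe. For the U0126 arrays among them this holds only if the titles do not name the channels. The same label stands on both channels of S3KO at 0.3 h, against the title, and S2WT at 4 h is called 2 h in another field.

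Values are log2 ratios with the median of the array subtracted, read as cells with over cells without TGF-β. That direction is likely but is not stated in the sources used here. On this scale 1 is a doubling and 0 is the median probe of the array. The files hold ratios alone, and precision is limited by how many arrays there are. Whether replicate arrays hold separate cultures is not given either, and the p-values then measure only the spread between arrays.

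Some arrays stand apart. S3KO at 1 h replicate 2 correlated below -0.3 with 16 other arrays over the 2244 probes measured on every array, and at -0.38 with the mean of the other lines' 0 h arrays, so its direction is not settled. S3KO at 0 h replicates 1 and 2 correlated with that mean at -0.16 and -0.10, and S3WT at 1 h replicates 1 and 2 with each other at 0.01. Some of the results that use S3KO 1 h replicate 2 or S3WT 1 h replicate 1 are also given without that array, and others are not.

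Without TGF-β the Klf10 ratio lay near 0. Over the 15 arrays at 0 h it ranged from -0.45 to 0.58 with a median of -0.02, and its mean was 0.03 ± 0.28 (SD, n = 15). No line's 0 h mean differed from 0 by limma (adjusted p from 0.897 to 1.00), while the share of probes that did was 5.34% for U0126, 4.66% for S2KO, 3.24% for S3KO, 3.01% for S3WT and 0.297% for S2WT. The probe was also quieter than most: its residual SD over arrays was 0.37 against a median of 0.58 over all probes.

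In S3WT the Klf10 ratio stood at 2.34, 0.90 and 0.88 on the 3 arrays at 1 h, all above the highest 0 h array of any line. The mean was 1.38 ± 0.84 (SD, n = 3), against -0.05 ± 0.13 (SD, n = 3) at 0 h. Klf10 rose by 1.35 ± 0.24 (SE) at 1 h against the pooled 0 h arrays of all 5 lines, a 2.55-fold difference (limma, adjusted p = 0.0058). The SE rests on a residual SD taken over all groups, 0.37, which is smaller than the SD of this group. Among the 7714 probes tested it had the smallest p, where 0.0648% of probes were called. Replicate 1 carries much of this size: without it the value was 0.87 and the adjusted p 0.183, and the call held in the 17 other fits that left out 1 array.

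At 2 h the S3WT arrays read 0.48, 1.36 and 0.88, and at 4 h they read -0.31, 0.22 and 0.21. The 2 h values overlapped those at 1 h, and the 4 h values lay within the 0 h range. Against the pooled 0 h arrays the 2 h group differed by 0.88 ± 0.24 (limma, adjusted p = 0.0942, with 0.299% of probes called) and the 4 h group by 0.02 ± 0.24 (adjusted p = 1.00, with 0.298% called). Without 2 h replicate 1 the 2 h value passed (1.10, limma, adjusted p = 0.0264), the 1 call in 18 fits that left out an array. Without 2 h replicate 2 it was 0.66 (limma, adjusted p = 0.873), and 0 of 6 alternatives passed. The 4 h group lay below the 1 h group by -1.33 ± 0.31, which did not pass (limma, adjusted p = 0.0631, with 0.0576% of probes called), and without replicate 1 at 1 h the difference was -0.85 (adjusted p = 0.537). In limma fits that left out 1 array it passed in 3 of 6. These were without 1 h replicate 2 (-1.57, adjusted p = 0.0309), 1 h replicate 3 (-1.58, adjusted p = 0.0157) or 4 h replicate 3 (-1.42, adjusted p = 0.047). It did not pass without 4 h replicate 1 or 2. Of 7 alternatives 2 passed by limma, scaling (-1.82, adjusted p = 0.00356) and array weights (-1.09, adjusted p = 0.0188), and the highest adjusted p was 0.80. At 0.3 h the 3 arrays were at -0.06, -0.02 and 0.04, as close to 0 as the 0 h arrays.

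S2WT, the other wild-type line, had lower means than S3WT at 1 and 2 h and higher ones at 0.3 and 4 h. None of these differences between the 2 lines passed by limma. At 1 h its 2 measured arrays read 0.97 and 0.44, at 2 h the arrays read 0.40, 0.05 and -0.06, and at 4 h they read 0.59, -0.03 and 0.51. Of these 8 values, 2 lay above the highest 0 h array. At 0.3 h S2WT read 0.27, 0.67 and 0.30, higher than its own 0 h arrays at -0.18, 0.11 and 0.10. None of the times passed against the pooled 0 h arrays: the 0.3 h group differed by 0.39 ± 0.24 (limma, adjusted p = 0.96, where 0.0657% of probes were called) and the 1 h group by 0.68 ± 0.28 (adjusted p = 0.541, where 0.272% were called). The 2 h group differed by 0.11 ± 0.24 (with 0.26% called) and the 4 h group by 0.33 ± 0.24 (with 1.45% called). The 1 h value was 0.42 without 1 h replicate 1 and 0.41 without centring. The 4 h value ranged from 0.22 to 0.53 when replicate 1 or replicate 2 of that group was left out, and uncentred it was 0.18.

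In S2KO the values were high at 1 and 4 h and lower at 2 h. The arrays read 1.24, 0.49 and 1.66 at 1 h, then 0.06, 0.17 and 0.26 at 2 h, then 1.30, 0.57 and 1.39 at 4 h. The lowest of the 6 arrays at 1 and 4 h, at 0.49, lay above the highest 2 h array at 0.26. Klf10 rose by 1.10 ± 0.24 at 1 h (limma, adjusted p = 0.016, with 0.208% of probes called) and by 1.06 ± 0.24 at 4 h (adjusted p = 0.00453, with 3.86% called), both against the pooled 0 h arrays. These are 2.15-fold and 2.09-fold differences. The 2 h group differed by 0.14 ± 0.24 (adjusted p = 0.917, with 2.69% called). At 0.3 h the arrays read -0.64, -0.02 and 0.50, a wide spread around 0.

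The dip at 2 h was tested after the values were seen. The 2 h group lay below the 1 h group by -0.97 ± 0.31 (limma, adjusted p = 0.298, unadjusted p = 0.00286, with 0.106% of probes called), and the 4 h group above the 2 h group by 0.93 ± 0.31 (adjusted p = 0.166, unadjusted p = 0.00419, with 0.793% called). Neither passed. The 1 h call was lost without 1 h replicate 1 or 3 (values of 1.05 and 0.84), without centring the arrays (0.83, adjusted p = 0.0969) and when arrays were scaled to a common spread (1.08, adjusted p = 0.0985). The 4 h call was lost without 4 h replicate 1 or 3 (values of 0.95 and 0.91) and with the same scaling (0.80, adjusted p = 0.219).

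**Figure D1:**
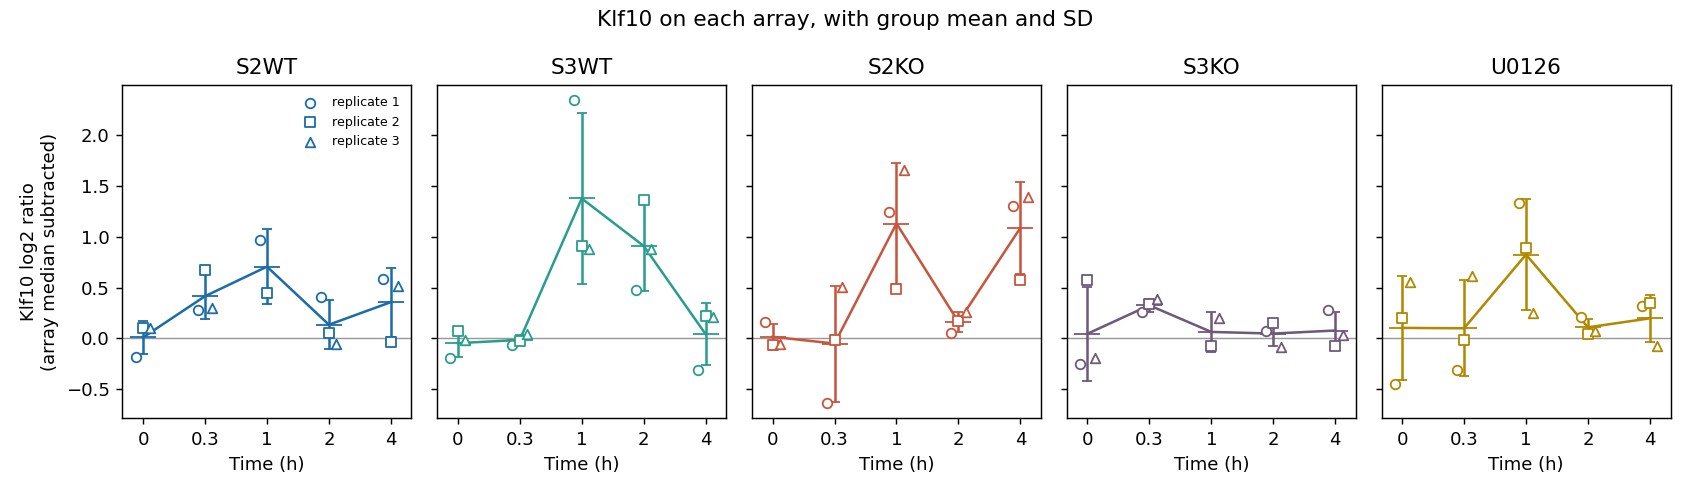
Each panel plots the Klf10 log2 ratio (array median subtracted) against time in hours for a line; open symbols are single arrays by replicate number, and horizontal marks with bars are the group mean and SD, joined by a line. S3WT peaks at 1 h with a mean of 1.38, S2KO is high at 1 and 4 h and low at 2 h, and the S3KO arrays at 1, 2 and 4 h stay between -0.09 and 0.28.

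S3KO showed no such high values. The 2 arrays at 1 h read -0.08 and 0.20, the 3 at 2 h read 0.08, 0.15 and -0.09, and those at 4 h read 0.28, -0.08 and 0.03. None of these 8 values lay above the highest 0 h array, and their SD of 0.14 was smaller than that of the 0 h arrays. Against the pooled 0 h arrays Klf10 at 1 h differed by 0.04 ± 0.28 (limma, adjusted p = 1.00, with 0.571% of probes called), with a 95% interval from -0.53 to 0.61. With the sign of replicate 2 turned it differed by 0.12, and without that array by 0.18. The 2 h group differed by 0.02 ± 0.24 (with 0.0518% of probes called) and the 4 h group by 0.05 ± 0.24 (with 0.117% called). At 0.3 h the arrays read 0.26, 0.33 and 0.39, a difference of 0.30 ± 0.24 (adjusted p = 1.00); both channels there are labelled as without TGF-β.

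Under the U0126 label Klf10 read 1.33, 0.89 and 0.25 at 1 h, 0.21, 0.05 and 0.07 at 2 h, and 0.32, 0.34 and -0.07 at 4 h. The 1 h values spread widely, with 2 of 3 above the highest 0 h array and the third inside that range. The 1 h group differed from the pooled 0 h arrays by 0.80 ± 0.24 (limma, adjusted p = 0.176, unadjusted p = 0.00157, where 0.273% of probes were called). Without 1 h replicate 3 it passed (1.08, adjusted p = 0.039), and without replicate 1 it was 0.55. The 2 h and 4 h groups differed by 0.08 ± 0.24 (with 0.234% called) and 0.17 ± 0.24 (with 1.19% called). At 0.3 h the arrays read -0.31, -0.01 and 0.62.

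By mean at 1 h, the order of the lines was S3WT at 1.38, S2KO at 1.13, U0126 at 0.82, S2WT at 0.70 and S3KO at 0.06. The first 4 overlapped each other, and S3KO lay below all of them. The 11 arrays of the other lines at 1 h ranged from 0.25 to 2.34, and 8 of them exceeded the highest 0 h array. The S3KO arrays differed from these 11 by -0.97, with a two-sided exact permutation p = 0.0513 over 78 arrangements, a test chosen after the values were seen; the smallest p it allows is 0.0128. Without S3KO replicate 2 the difference was -0.83 (exact permutation p = 0.167, the smallest possible being 0.0833), and without S3WT replicate 1 it was -0.84 (exact permutation p = 0.0303). At 4 h S2KO was highest at 1.09, and its lowest array at 0.57 just overlapped the highest of the other lines at 0.59.

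Averaged over 1, 2 and 4 h against the pooled 0 h arrays, Klf10 rose in S3WT and S2KO. The values were 0.75 ± 0.16 in S3WT (limma, adjusted p = 0.038, above 0 on 8 of 9 arrays, with 0.146% of 7558 probes called) and 0.77 ± 0.16 in S2KO (adjusted p = 0.0019, above 0 on 9 of 9 arrays, with 2.49% of 7444 probes called). In S3WT, Klf10 stood at rank 110 from the top by size and rank 4 by p. S2WT at 0.37 ± 0.17 (adjusted p = 0.327, with 1.27% called) and U0126 at 0.35 ± 0.16 (adjusted p = 0.399, with 0.782% called) did not pass. Over 2 and 4 h alone they were 0.22 and 0.13, and without centring S2WT was 0.16. S3KO was at 0.04 ± 0.17 (adjusted p = 1.00, with 0.0141% called), with a 95% interval from -0.30 to 0.37.

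Leaving out arrays in turn, the S3WT value passed in 18 of 24 fits and was 0.59 without 1 h replicate 1 (adjusted p = 0.109). The 5 other arrays that ended the call were 0 h replicate 1 of S2WT, S3WT and U0126, S3WT 2 h replicate 2 and S3WT 4 h replicate 2. It also lost the call without the S3KO arrays in the 0 h pool (0.75, adjusted p = 0.0653) and over 2 and 4 h alone (0.45, adjusted p = 0.368). In S2KO all 24 such fits kept the call, which was lost when arrays were scaled to a common spread (0.67, adjusted p = 0.0558) and over 1 and 2 h alone (0.62, adjusted p = 0.0757).

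Against the 3 own 0 h arrays of each line the sizes were alike and no line passed. The values were 0.82 ± 0.25 in S3WT (limma, adjusted p = 0.188, with 0.12% of probes called), 0.78 ± 0.25 in S2KO (adjusted p = 0.196, with 0.515% called), 0.39 ± 0.26 in S2WT (with 0.192% called), 0.27 ± 0.25 in U0126 (with 0.0719% called) and 0.02 ± 0.26 in S3KO (with 1.53% called). The pooled comparison assumes that the lines share a background ratio, and for this probe the 5 means at 0 h ran from -0.05 to 0.10. The pool holds the U0126 arrays, and a pool without that whole group was not run. With no 0 h array subtracted, the treated arrays differed from 0 by limma in S2WT (0.40, with 23.1% of probes called), S3WT (0.77, with 8.62%), S2KO (0.79, with 26.6%) and U0126 (0.38, with 14.3%) and did not in S3KO (0.06, adjusted p = 0.919, with 1.82%). Because the 0 h arrays are shared, the pooled values of the lines are not independent of each other.

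**Figure D2:**
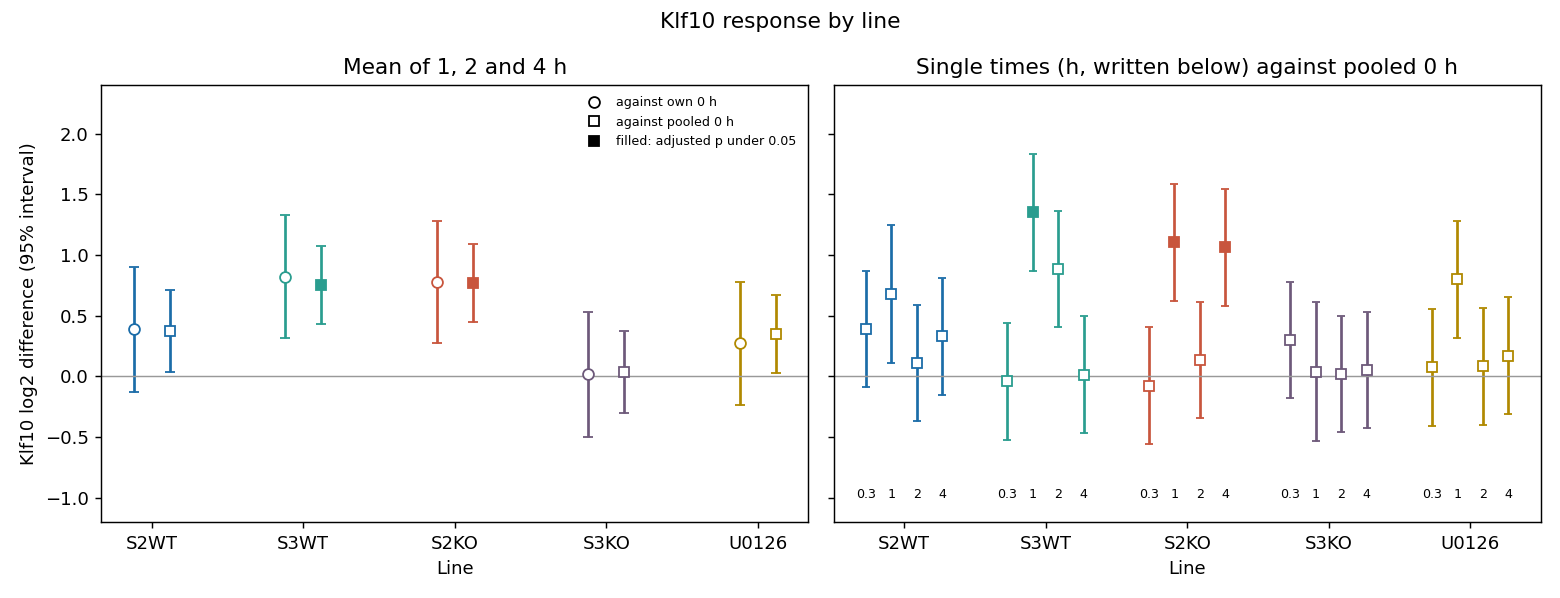
Points are Klf10 log2 differences with 95% intervals, by line; the left panel gives the mean of 1, 2 and 4 h against own (circles) and pooled (squares) 0 h arrays, and the right panel single times against the pooled arrays. Filled points, which passed at an adjusted p under 0.05, are the pooled S3WT and S2KO values on the left and S3WT at 1 h and S2KO at 1 and 4 h on the right.

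Whether the lines differ was tested on 5 pairs. As a difference of responses, each against its own 0 h arrays, none passed by limma. S3KO minus S3WT was -0.80 ± 0.36 (adjusted p = 0.48, with 0.126% of probes called) and S3KO minus S2KO was -0.76 ± 0.36 (adjusted p = 0.495, with 0.227% called). The first was -0.64 without S3WT 1 h replicate 1 and -0.50 over 2 and 4 h alone, and the second was -0.49 without S3KO 0 h replicate 2. S2KO minus S2WT was 0.39 ± 0.36, with a 95% interval from -0.33 to 1.11 (0.0386% called). U0126 minus S2WT was -0.12 ± 0.36, with an interval from -0.84 to 0.61 (0.0252% called). S3WT minus S2WT was 0.43 ± 0.36, with an interval from -0.29 to 1.16.

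Without subtracting the 0 h arrays, the treated arrays of pairs of lines were compared by permuting line names within each time. S3KO lay below S2KO by a mean of -0.73 (two-sided exact permutation p = 0.00475, adjusted over the 5 pairs p = 0.0238) and below S3WT by -0.71 (p = 0.012, adjusted p = 0.03). None of the 8 S3KO arrays exceeded the median of either line. S2KO minus S2WT was 0.39 (exact permutation p = 0.0665, adjusted p = 0.111), S3WT minus S2WT was 0.38 (p = 0.19) and U0126 minus S2WT was -0.02 (p = 0.895). Without S3KO 1 h replicate 2 the difference from S2KO was -0.68 (exact permutation p = 0.00688) and that from S3WT -0.67 (p = 0.0819). With its sign turned the exact permutation test gave -0.70 (p = 0.0055) and -0.69 (p = 0.014). Without S3WT 1 h replicate 1 the difference from S3WT was -0.55 (exact permutation p = 0.0167). Over all probes, limma gave the direct difference between S3KO and S2KO an adjusted p of 0.0251 with 1.51% of probes called, and that between S3KO and S3WT an adjusted p of 0.199. The first was called in 10 of 17 fits with an array left out, but not without S3KO 1 h replicate 2 (-0.68). It was not called without centring (-0.57, adjusted p = 0.125), with scaling (-0.62, adjusted p = 0.266) or when fitted on these lines alone (-0.73, adjusted p = 0.0754), and scaling brought the second to -0.86 (adjusted p = 0.048).

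Of 25 further genes listed for the KLF and Sp family, 10 had a single-symbol probe, on 14 probes, and in the 67 tests of these over the 5 pooled comparisons limma called 0, with 8 at an unadjusted p under 0.05. Over all probes the share called in these comparisons was 0.0141% in S3KO, 0.146% in S3WT, 0.782% in U0126, 1.27% in S2WT and 2.49% in S2KO, so a count of 0 on so few probes is near the background. The share at an unadjusted p under 0.05 was 5.17% to 14.9%. The median of the family lay between -0.23 and -0.03 by line, where the median of all probes was within 0.01 of 0. Klf11 is the closest relative of Klf10 and also known as a TGF-β-inducible gene. It was at 0.23 ± 0.46 (SE) in S3WT and -0.45 ± 0.44 in S2KO, against an SE of 0.16 for Klf10. Klf6, another early-response member, was at -0.22 ± 0.34 and -0.36 ± 0.34 in these lines. Klf9, an early glucocorticoid target, was at 0.16 ± 0.18 and 0.30 ± 0.18. Klf5, a growth-promoting member, was at -0.78 in S2KO (adjusted p = 0.083) and -0.05 in S3WT.

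None of the remaining family probes passed either. Klf3, a repressor that binds CtBP, was at 0.06 in S3WT and -0.14 in S2KO, and Klf15, a metabolic regulator, at -0.29 and -0.56. The ubiquitous activator Sp1 had 3 probes, at -0.14, -0.68 and -0.43 in S3WT, and its relative Sp3 was at -0.07. Klf7, a neuronal member, had 2 probes, at 0.19 and -0.10 in S3WT. Klf1, the erythroid member, was at -0.32 on the probe that could be tested in S3WT. In S2WT, where Klf10 was at 0.37, the 2 Klf7 probes were at 0.83 ± 0.31 (limma, adjusted p = 0.217) and -0.38 ± 0.24.

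Genes that act with or downstream of Klf10 were few on the array. Of 15 listed names, 6 had a single-symbol probe, and in 35 tests over the pooled comparisons limma called 0, with 5 at an unadjusted p under 0.05, again near the background of 0.0141% to 2.49% called. Smad7 was at 0.06 in S3WT and 0.41 in S2KO (adjusted p = 0.131) on probe 7665, while its probe 5186 was measured on too few arrays to be tested. Hdac1 and Hdac2, the deacetylases of the Sin3A complex, were at 0.29 and -0.10 in S3WT, with the other Hdac1 probe at 0.01. The ubiquitin ligases Itch and Siah1a, which are known to act on Klf10, were at 0.10 and 0.30 in S3WT and at -0.15 and 0.04 in S2KO. Bcl2, the survival gene, was at 0.26 in S3WT and -0.34 in S2KO.

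In the TGF-β pathway list, 16 of 26 genes had a probe. Where Klf10 rose in S3WT, limma called 0 of its 24 tested probes, with 9 at an unadjusted p under 0.05, and their median was 0.11; 0.146% of all probes were called and 8.41% were under that p. In S2KO it called 5 higher and 2 lower of 24, with a median of 0.14, where 2.49% of all probes were called. The higher ones were Skil, the Smad corepressor SnoN (1.22), the receptor gene Tgfbr1 (1.06), the ubiquitin ligase genes Smurf1 (0.62) and Smurf2 (0.41 on 1 of 3 probes), and the receptor gene Acvr1 (0.52). The lower ones were the co-receptor genes Eng (-1.08) and Tgfbr3 (-1.10 on 1 of 3 probes). Smad3 itself was at -0.10 in S3WT and -0.13 in S2KO on probe 401, and at 0.32 and -0.25 on probe 2918. The remaining Smad3 probe, 7886, was not tested against pooled 0 h arrays because only 1 S3KO array at 0 h measured it, and its means in S2KO at 1, 2 and 4 h were -0.24, -0.53 and -0.66. Skil, Tgif1 and Smad7 stand in more than 1 of these lists, as does Klf6.

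Early TGF-β target genes give a measure of scale. Of 14 tested probes for 13 of these genes, limma called 3 higher in S3WT (median 0.34, with 0.146% of all probes called), 8 in S2KO (median 0.55, with 2.49%), 6 in S2WT (with 1.27%), 3 in U0126 (with 0.782%) and 0 in S3KO (with 0.0141%), none lower. In S3KO 0 of them had an unadjusted p under 0.05. Klf10, at 0.75, lay in S3WT below Hbegf, a growth factor of the EGF family (1.36), the repressor Bhlhe40 (1.08) and the stress gene Gadd45b (0.95). It lay above Skil (0.52) and Snai1, a repressor of epithelial genes (0.37), which did not pass there. In S2KO, Hbegf was at 2.23, Gadd45b at 2.07, Snai1 at 1.83, Ccn1 at 1.39, Ier2 at 1.13, Bhlhe40 at 0.69 and the cell cycle inhibitor gene Cdkn1a at 0.41, beside 0.77 for Klf10. These differences are each against a different probe's background and do not rank transcript levels.

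The group means of some of these genes can be set beside those of Klf10. Hbegf in S3WT had means of 1.14, 1.63 and 1.61 at 1, 2 and 4 h, where Klf10 had 1.38, 0.91 and 0.04. Skil in S2KO climbed through 0.66, 1.15 and 1.52, where Klf10 had 1.13, 0.16 and 1.09. Bhlhe40 in S2KO had means of 0.70, -0.00 and 1.34. Differences between the genes were not tested.

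Genes with the pattern most like that of Klf10 were sought by Pearson correlation over single arrays among 6517 single-symbol probes. The points share arrays, lines and their background, so the correlations are a description. The median r was 0.01 and the 99th percentile 0.34. The 8 highest were Tgif1, a homeodomain corepressor of Smads (0.63 over 73 arrays), Csnk2a2, a catalytic subunit of casein kinase 2 (0.62), Bhlhe40 (0.60), Skil (0.58), the RAS-like GTPase gene Rasl11b (0.54), the immediate early nuclear receptor Nr4a1 (0.49), Gadd45b (0.49) and the adhesion receptor gene Pvr (0.49). Over the 25 group means the r of Tgif1 was 0.88, that of Csnk2a2 0.83 and that of Pvr 0.51.

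Other probes of the same genes did not always follow. The second Tgif1 probe had an r of 0.52, whereas the 3 other Csnk2a2 probes had 0.38, -0.12 and -0.08, of which the first lies above the 99th percentile and the others do not. By Spearman correlation 5 of the 8 stayed among the highest 8, and over the 1, 2 and 4 h arrays alone 3 did: Tgif1, Csnk2a2 and Rasl11b. The lowest correlations were those of the phosphatase gene Ppm1b (-0.45, with 2 other probes at 0.17 and 0.02) and Proz, a plasma glycoprotein gene (-0.45).

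**Figure D3:**
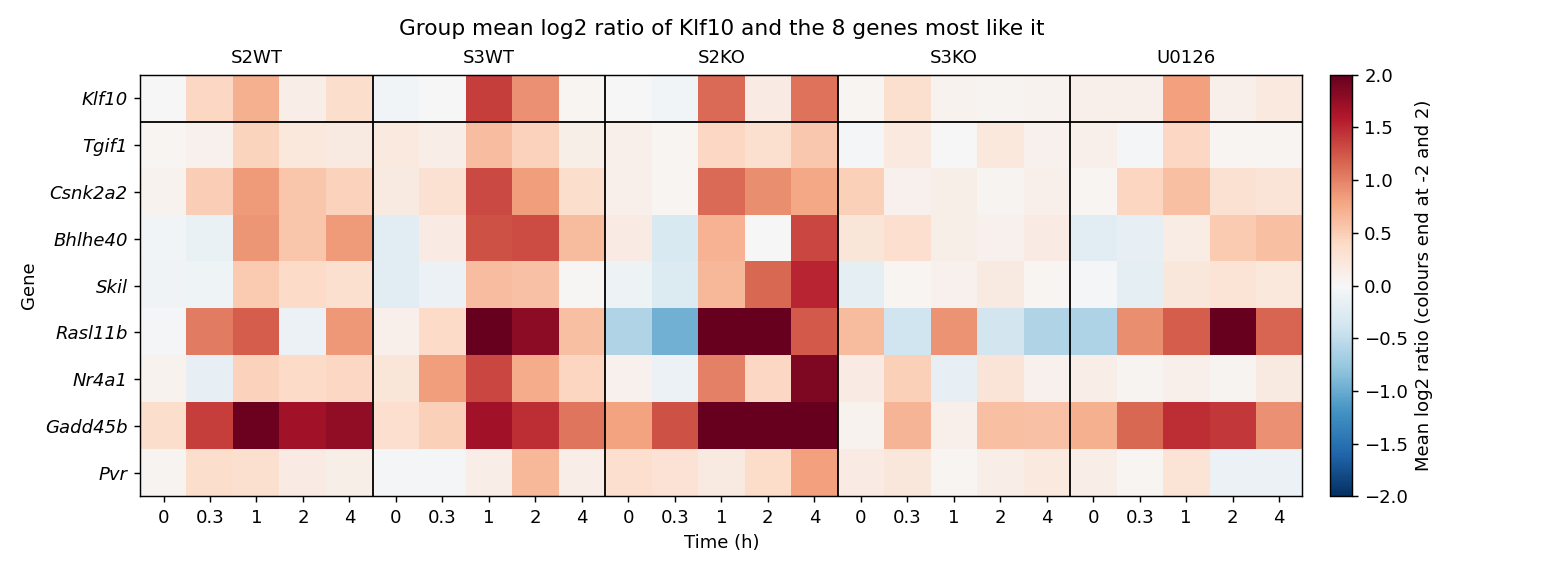
Rows are Klf10 and the 8 genes most like it, columns the 25 groups by line and time in hours, and colour the group mean log2 ratio, with colours ending at -2 and 2. Klf10 and Csnk2a2 are most intense at 1 h in S3WT, with means of 1.38 and 1.31, and the S3KO block is pale for most genes, with Tgif1 at 0.01 and Skil at 0.09 at 1 h.

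Marker lists for fibroblasts, epithelium, endothelium and leukocytes held 12 genes with a probe, on 18 probes. In 74 tests over the pooled comparisons limma called 0 of them, with 9 at an unadjusted p under 0.05, where 0.0141% to 2.49% of all probes were called. The medians of single lists ran from -0.39 to 0.73, the extremes from lists of 2 tested probes or fewer. A ratio gives no level, so these lists do not place the cells.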

How the data were processed

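The data were deposited as log2 ratios of the 2 channels of 74 arrays, without intensities. How the authors corrected background, which dyes they used, how they normalised and which way the ratio runs: not given in the sources used here. Values of 16.61, the log2 of a ratio of 100000, were set to missing (1344 values, none of Klf10), 41670 values were blank, and each array was centred on its median, which ran from -0.60 to 0.22. Groups came from the titles.

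For each probe a mean per group was fitted over all arrays by least squares in R 4.3.3, and variances were moderated with squeezeVar of limma 3.58.1; "limma" in the text means the resulting two-sided moderated t. A probe was tested where at least 2 arrays of each group measured it. P-values were adjusted by Benjamini-Hochberg over all tested probes of a contrast, and 0.05 was the threshold. Pooled comparisons used the mean of the 5 lines' 0 h groups. Line differences on treated arrays also had an exact permutation test. The code was tested on simulated data. Klf10, the gene lists, the comparisons and the alternatives were chosen with earlier results of these data known. Every KLF, Sp and Klf10-partner gene with a probe was to be named, other list genes where they were called beside Klf10, and the 8 highest and 2 lowest correlations over at least 60 arrays. Gene symbols came from the platform annotation, which gives 7348 probes 1 symbol, 399 several and 1229 none; 7274 of the 7348 matched the RefSeq gene table (GRCm38.p6) by gene ID. The promoter and protein of Klf10 are not shown here. Alternatives were no centring, scaling, a replicate block, fewer lines, array weights, averaged probes, other backgrounds and times, and leaving out each array.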

Additional observations from a re-analysis of the deposited data

Results flagged for a closer look

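The comparison of treated arrays differed between lines in 2 of the 5 pairs by the exact permutation test within times. Klf10 was lower in S3KO than in S3WT by a mean of -0.71 (exact permutation, adjusted p = 0.03) and lower than in S2KO by -0.73 (adjusted p = 0.0238). Over 2 and 4 h alone the differences were -0.41 (exact permutation p = 0.1) and -0.56 (p = 0.015). These differences include any difference in background between the lines. As differences of responses against own 0 h arrays the pairs stood at -0.80 and -0.76 and did not pass by limma (adjusted p = 0.48 and 0.495).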

How the results depend on the processing

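Klf10 kept its direction in S2WT, S3WT and S2KO under the alternatives run for the responses; the calls depend on the background used, that in S3WT also on 1 h and that in S2KO also on 4 h. Without centring the S2WT response fell from 0.39 to 0.17 against own 0 h arrays and from 0.37 to 0.16 against pooled ones. With treated arrays tested against 0, limma also called S2WT (0.40, adjusted p = 0.0266) and U0126 (0.38, adjusted p = 0.0353) beside S3WT (0.77) and S2KO (0.79), and for S3KO minus S2KO the value was -0.73 (adjusted p = 0.0251). With array weights, whose estimation stopped before its tolerance, S2KO passed against own 0 h arrays (0.87, adjusted p = 0.0461). Calls against pooled 0 h arrays were lost with scaling in S2KO (0.67), over 1 and 2 h alone in S2KO (0.62), over 2 and 4 h alone in S3WT (0.45), and without S3KO in the pool in S3WT (0.75).

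Signs turned only for values that did not pass in either setting. Uncentred, these were S3KO against own 0 h (-0.087), U0126 minus S2WT (0.22), S2WT at 2 h (-0.13), S3WT at 0.3 h (0.033) and S2KO from 1 to 4 h (0.25). Scaled, it was S3WT at 4 h (-0.018). With array weights they were S2KO (0.085) and U0126 (-0.039) at 0.3 h. With S3KO 1 h replicate 2 turned, it was S3KO from 1 to 4 h (-0.064).

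Leaving out 1 array moved the pooled response between 0.59 and 0.83 in S3WT and between -0.018 and 0.091 in S3KO. Against own 0 h arrays it moved between -0.13 and 0.28 in S3KO and between -0.0016 and 0.50 in U0126, and for U0126 minus S2WT between -0.39 and 0.11. Against pooled 0 h arrays the ranges at 0.3 h were -0.35 to 0.22 in S2KO, -0.095 to 0.013 in S3WT and -0.18 to 0.28 in U0126. They were -0.026 to 0.20 in S2WT at 2 h, -0.074 to 0.19 in S3WT at 4 h, and in S3KO -0.10 to 0.18, -0.033 to 0.089 and -0.048 to 0.13 at 1, 2 and 4 h. The change from 1 to 4 h ranged from -0.36 to 0.22 in S2KO and from -0.13 to 0.16 in S3KO, and that from 1 to 2 h in S3WT from -0.71 to 0.017. The cause of these shifts was not tested.

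A block for the replicate numbers within a line changed no Klf10 call: the response against own 0 h arrays was 0.82 in S3WT (adjusted p = 0.245) and 0.78 in S2KO (adjusted p = 0.203). The block was not run for pooled 0 h arrays. Whether the numbers pair the arrays is not given. Of 15 correlations of deviations between 0 h and treated arrays, 6 exceeded 0.1 (range -0.02 to 0.28), which does not settle it. The number of probes called against own 0 h arrays went from 10 to 23 in S3WT with the block. With arrays scaled the splits of higher and lower calls were 33 and 25 in S2WT and 6 and 1 in S2KO against own 0 h arrays. Uncentred, pooled splits were 24 and 271 in S2WT and 62 and 66 in S2KO, against 64 and 32, and 142 and 43. The fit over probes measured on every array was not run, as Klf10 has a blank.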
